A study of Mus musculus with 30 samples.

Results

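Removal of MLKL from mice that lack both Xbp1 and Casp8 in the gut epithelium was compared with that double knockout in whole colon RNA. The comparison set the 5 libraries labelled XBP1IEC-KO;Casp8IEC-KO;MLKLKO, here the MLKL triple knockout, against the 5 labelled XBP1IEC-KO;Casp8IEC-KO, here the double knockout. They are 10 of the 30 libraries of the series, 1 mouse each, and were chosen by genotype label alone. Of all gene identifiers, 15458 had enough reads to be tested. By the labels, the epithelium of the gut (IEC, intestinal epithelial cells) lacks Xbp1 and Casp8 in both groups. The comparison thus holds these labelled deletions fixed and adds the loss of Mlkl, for which the labels name no cell type. No further treatment is named in the sources used here, and neither are the age and strain of the mice, the promoter of the Cre, the exons removed, or whether littermates were used. Of the 4 other genotypes, 2 serve below as references, 5 libraries each. They are the WT controls and XBP1IEC-KO;Casp8IEC-KO;TNFR1IEC-KO, here the TNFR1 triple knockout, which lacks the TNF receptor in IEC in addition to Xbp1 and Casp8.

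Necroptosis is a form of cell death in which the kinase RIPK3 phosphorylates MLKL, and MLKL then breaks the plasma membrane and spills the contents of the cell. Caspase-8 restrains this route by cleaving RIPK1 and RIPK3, and epithelial cells of the gut that lack caspase-8 are known to be prone to it. XBP1, a transcription factor, enlarges the capacity of the endoplasmic reticulum (ER) to fold and secrete proteins. The design asks which genes altered in the double knockout depend on MLKL.

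RNA was read as 3′ tags, which sample the end of each transcript, and levels are given in CPM, a gene's reads per library scaled so that every library sums alike. Library totals ran from 3835605.6 to 5823059.7 reads over the 10 libraries, and 1 read was worth about 0.232 CPM in the median library. Absorptive colonocyte genes, 22 of 23 of them measured, summed to between 9983 and 14310.1 CPM in the double knockout and between 10188 and 12978 in the MLKL triple knockout, while genes of the small intestine and Paneth cells summed to at most 89.6 CPM and squamous genes to at most 13.5. The libraries held smooth muscle, immune and nerve transcripts as well, and in such bulk RNA fewer cells of a type cannot be told apart from less RNA per cell. By Xist and Y-linked genes, since the labels give no sex, all 5 MLKL triple knockout libraries were female, while the double knockout held 1 female (replicate 3) and 4 males. In WT replicate 3 was likewise the only female library. In the TNFR1 triple knockout replicate 3 was male and the others were female. Mitochondrially encoded genes took 10.3% of the reads of double knockout replicate 1, where the rest of that group had 16 to 19.2%. The library labelled MLKL triple knockout replicate 5 had high interferon genes, so list counts are also given without it where they differ.

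A total of 1182 genes differed (7.65% of those tested; edgeR's quasi-likelihood test, Benjamini-Hochberg adjusted p under 0.05). In the MLKL triple knockout 531 genes were higher (3.44%) and 651 were lower (4.21%), and 361 of the changes were at least 2-fold. The median log2 fold change over all genes tested was 0.01. Gene lists are described below by how many of their measured members differed and by their median log2 fold change. Where a list is counted in 1 direction only, edgeR, DESeq2 and limma voom called 0 of its genes in the other, and over the 30 such lists 6 genes had an unadjusted p under 0.05 there. A gene that passed the filter on low reads through its level in 1 of the groups compared alone was more likely to differ. Where some members of a list had too few reads, its count and median therefore describe the measured members alone. The lower side held genes of epithelial antimicrobial proteins, antigen presentation, plasma cells, neutrophils, cytokines and epithelial repair. The higher side held the goblet cell product Clca1, the gasdermin C genes and contractile genes of smooth muscle. Without the library labelled replicate 5, 1239 genes differed (7.91% of 15665), 539 higher (3.44%) and 700 lower (4.47%), and 995 of these were among the 1182. With the sex of the mouse as a term in the fit 876 genes differed (5.67%; 2.68% higher and 2.98% lower), 700 of them among the 1182, and a fit of these 10 libraries alone called 490. In females only, 5 libraries against 1, edgeR called 0 genes, and 1121 had an unadjusted p under 0.05.

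**Figure D1:**
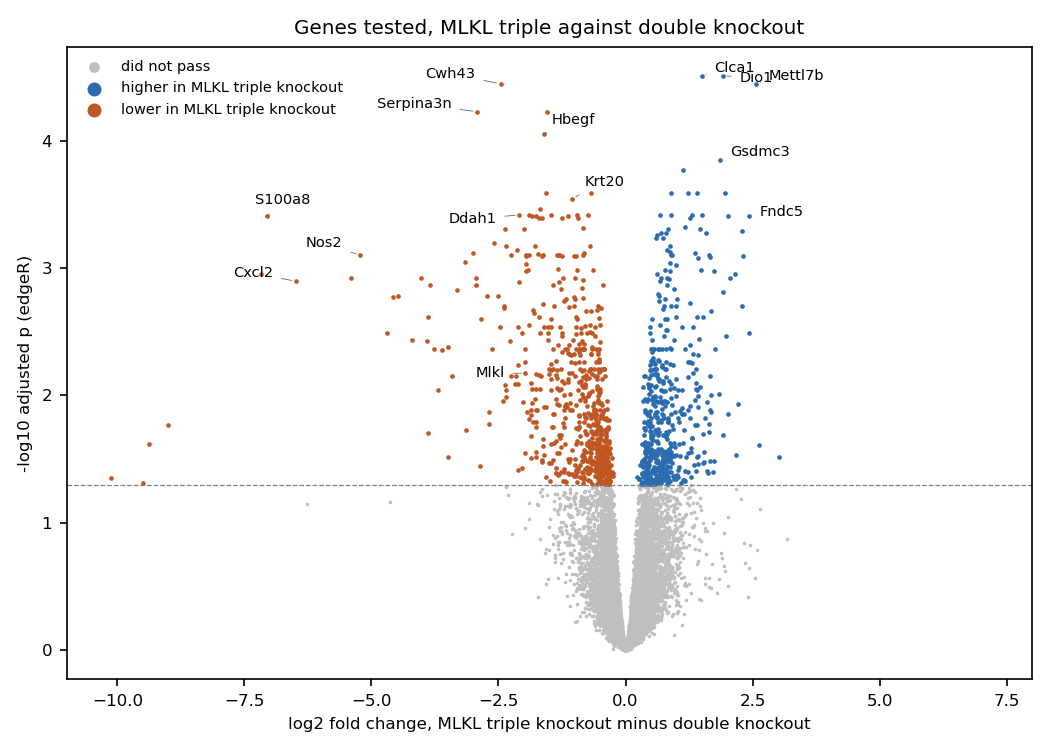
Each point is 1 of the genes tested, with the log2 fold change (MLKL triple minus double knockout) on the horizontal axis and −log10 of the adjusted p on the vertical axis, and the dashed line marks the threshold of 0.05. Blue points (531) were higher and orange points (651) lower in the MLKL triple knockout, the 4 orange points at the far left are Y-linked genes, and labelled genes are described in the text.

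The targeted genes were read first. Mlkl (ENSMUSG00000012519, GRCm38 chromosome 8, 111311797 to 111338177, minus strand) stood at 13.7, 12.8, 11.8, 29.2 and 21.9 CPM in double knockout replicates 1 to 5. The MLKL triple knockout libraries held 1.3, 2.76, 4.38, 3.59 and 10.7 CPM, and the groups did not overlap (log2 fold change −1.97 ± 0.454 (SE), adjusted p = 0.00669). Replicates 1 to 4 lay below every WT library (5.72 to 9.88 CPM). The library labelled replicate 5 lay above every WT library, though below every double knockout library. Whether that library has the labelled genotype cannot be told from its tag level. Since the deleted part of Mlkl is not given, tags beyond it could remain after the deletion, and their level is no measure of the protein. The fold change was −2.54 without that library (adjusted p = 0.00142). With all libraries, Mlkl in the MLKL triple knockout did not pass by edgeR against WT (−0.68 ± 0.485, adjusted p = 0.535). Nor did it pass against the TNFR1 triple knockout (−1.57 ± 0.461, adjusted p = 0.183). In the double knockout Mlkl was itself higher than in WT (1.29 ± 0.43, adjusted p = 0.03). Casp8 is deleted in the epithelium of both groups by label. It stood at 35.9 ± 9.58 CPM (SD, n = 5) in the double knockout and 19.1 ± 6.49 CPM with MLKL removed (−0.91 ± 0.239, adjusted p = 0.0162). WT held 53.6 ± 2.92 CPM, and the double knockout did not pass against it by edgeR (−0.58, adjusted p = 0.0679). The call for Casp8 was lost without double knockout replicate 4 and without MLKL triple knockout replicate 3. Xbp1 tags stood at 104 ± 24.8 and 74.4 ± 11.9 CPM, a difference that did not pass (−0.49 ± 0.201, adjusted p = 0.134). WT held 76.7 ± 20.8 CPM, and by edgeR neither group passed against it (adjusted p = 0.115 for the double and 0.946 for the MLKL triple knockout). These tags thus do not show the Xbp1 deletion, the exons of which are not given either.

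Of the 20 genes of the necroptosis machinery, all of them measured, 4 were lower, with a median log2 fold change of −0.17 over the list (5 lower without the library labelled replicate 5). Those 4 were Mlkl, Casp8, Ripk3 and Chmp2a. Ripk3, which encodes the kinase that activates MLKL, stood at 24.2, 28.4, 27.3, 36.6 and 21.6 CPM in the double knockout and at 12.7, 11, 11, 11.9 and 15.5 in the MLKL triple knockout. Every MLKL triple knockout library lay below every double knockout library (−1.15 ± 0.289, adjusted p = 0.0124), and the WT mean was 8.35 ± 1.74 CPM. Chmp2a encodes a subunit of the ESCRT-III complex, which repairs membranes (−0.41 ± 0.119, adjusted p = 0.0302). Its call was lost in 8 alternative fits, among them limma voom (adjusted p = 0.0617), the fit of the 10 libraries alone (0.101) and 6 of the 10 fits that left out 1 library. Ripk1, whose product assembles the complex with RIPK3, had 62.7 ± 11 and 56.9 ± 4.39 CPM (adjusted p = 0.52). For Fadd and Cflar, partners of caspase-8, the adjusted p was 0.778 and 0.638. Zbp1, a nucleic acid sensor that can also start necroptosis, ran from 12.2 to 73 CPM in the double knockout and from 10.6 to 27 in 4 MLKL triple knockout libraries, with 102 in the library labelled replicate 5 (adjusted p = 0.824 with it and 0.188 without it).

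**Figure D2:**
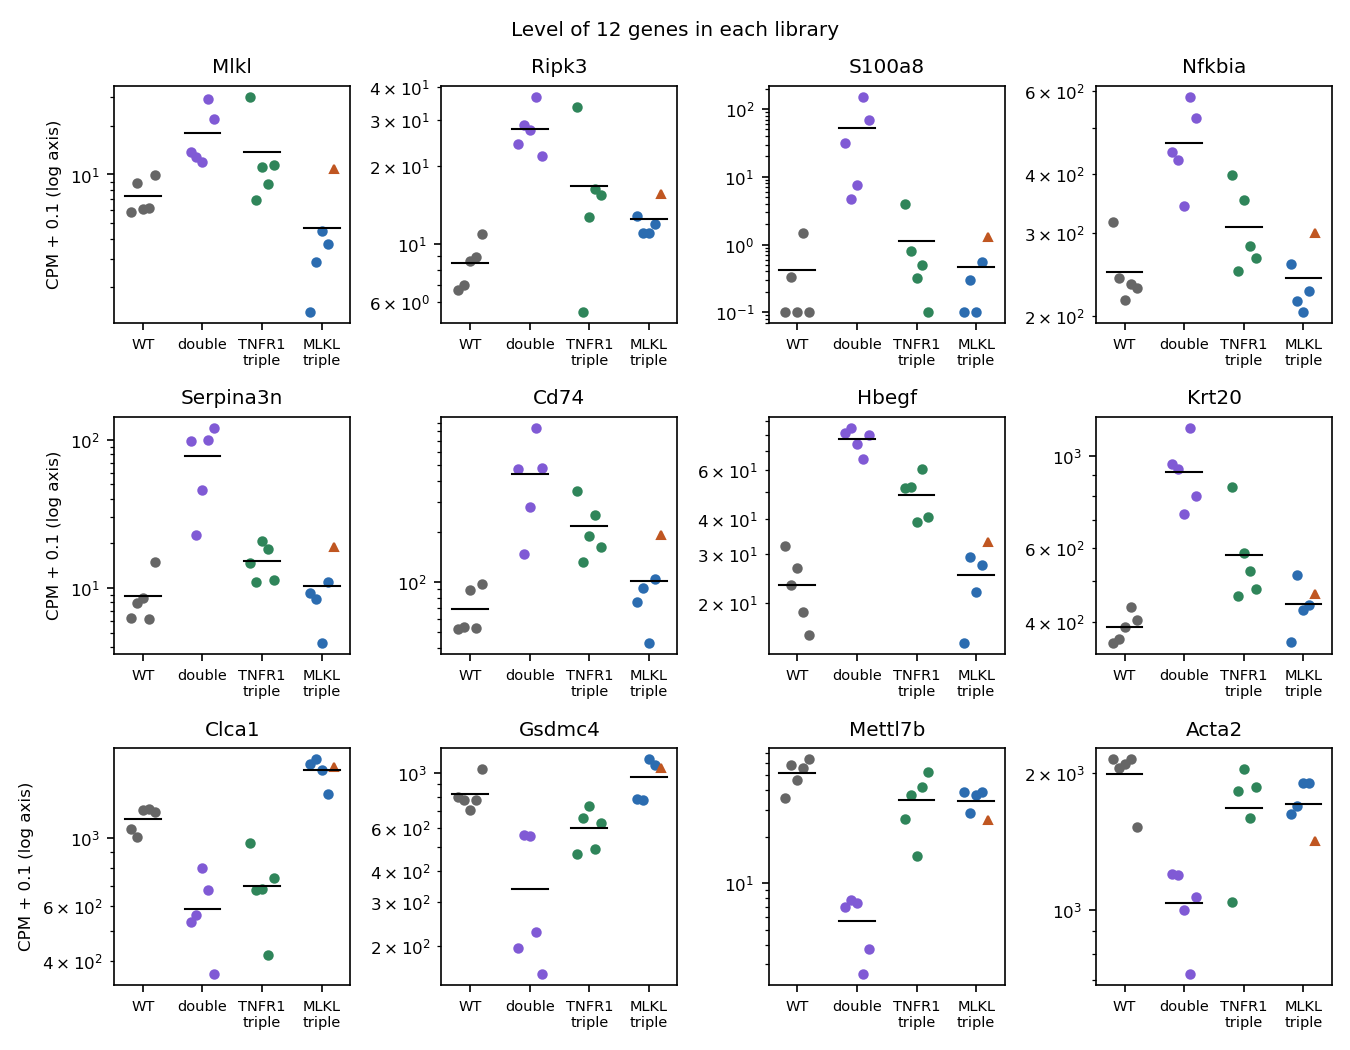
Level of 12 genes in each library as CPM + 0.1 on a log axis, by genotype, with a line at the group mean; the triangle is the library labelled MLKL triple knockout replicate 5. In Ripk3, Nfkbia, Serpina3n, Hbegf, Krt20, Clca1, Gsdmc4, Mettl7b and Acta2 the double and MLKL triple knockout libraries do not overlap, and in Cd74 they do.

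Some transcripts of neutrophils, S100a8 among them, and some of the signals that draw these cells were near the detection limit after MLKL removal, but Ly6g was not. Of 15 neutrophil genes only 4 had enough reads. A gene that passes this filter through its level in the double knockout is more likely to differ, so their count is a description. All 4 were lower, and 3 without the library labelled replicate 5. S100a8, a calcium-binding protein abundant in neutrophils (chromosome 3, 90668978 to 90670035), stood at 32, 4.6, 7.57, 152 and 69 CPM in double knockout replicates 1 to 5. In the MLKL triple knockout it stood at 0, 0.197, 0, 0.449 and 1.21 CPM, in the range of the WT mean of 0.327 ± 0.607. These levels rest on 1171 reads against 8, a ratio of 131 (95% exact interval 66.1 to 304, covering counting error only), and the fitted adjusted p was 0.000391. Its partner S100a9 had 957 reads against 6, a ratio of 142 (65.2 to 389; adjusted p = 0.00112). The groups did not overlap in either gene, and double knockout replicates 4 and 5 were the highest. Limma voom did not call S100a8. Ly6g behaved differently in level: it held 202 ± 62.3 CPM in WT, where S100a8 was nearly absent, and 382 ± 119 against 233 ± 23 in the groups compared (−0.71 ± 0.219, adjusted p = 0.0401; 0.0513 without the library labelled replicate 5). Its call was lost in 13 alternative fits, and in females only its log2 fold change was 0.07.

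Among 19 inflammatory cytokines and neutrophil chemokines 7 had enough reads. Of these 4 were lower, which is again a description, since genes such as Cxcl2 passed the filter through groups in which they were high. Il1b, the inflammasome-processed cytokine, stood at 10.3, 9.72, 6.97, 53.4 and 20 CPM in the double knockout and at 1.04, 0.984, 1.22, 0.674 and 3.4 with MLKL removed (−3.76 ± 0.815, adjusted p = 0.00433). Cxcl5, a chemokine for neutrophils, ran from 7.57 to 17.8 CPM in the double knockout and from 0.73 to 4.13 in the MLKL triple knockout (−2.36 ± 0.41, adjusted p = 0.000671). Cxcl2, of the same family, rested on 146 reads against 1 read, a ratio of 130.4 (edgeR adjusted p = 0.00127). Its interval of 23 to 5187 again covers counting error only and leaves out the spread between mice. Il1rn, the natural antagonist of the interleukin 1 receptor, fell from 123 ± 22.7 to 76.1 ± 11.9 CPM (adjusted p = 0.00616). The groups overlapped in none of these 4 genes, which their choice by smallest p makes likely. Tnf itself stood at 12.1, 6.9, 5.98, 26 and 17.1 CPM against 0.519, 0.984, 0, 0.674 and 2.18, with no overlap (−3.90 ± 0.833, adjusted p = 0.00373). It was the clearest of the TNF family and its receptors, of which 3 of 9 measured were lower. The other two were Tnfsf13b, the B cell survival factor BAFF (−0.64, adjusted p = 0.0327), and the receptor Tnfrsf1a (−0.42, adjusted p = 0.0395). The call for Tnfsf13b was lost in 10 alternative fits and that for Tnfrsf1a in 11, sex as a term and the fit of the 10 libraries among them for both. For Tnfrsf1a the adjusted p was 0.0733 without the library labelled replicate 5, 0.0869 without double knockout replicate 1 and 0.154 in the fit of the 10 libraries.

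NF-kB is the transcription factor switched on by TNF and interleukin 1, and it induces its own inhibitors. Of the 15 NF-kB feedback and target genes 6 were lower (median −0.73; 7 without the library labelled replicate 5). Nfkbia, which encodes the inhibitor IkB-alpha, stood at 446, 429, 342, 583 and 525 CPM in double knockout replicates 1 to 5 and at 258, 215, 204, 226 and 300.0 in the MLKL triple knockout. The lowest double knockout library was above the highest MLKL triple knockout library, and WT held 248 ± 39.9 CPM (−0.95 ± 0.151, adjusted p = 0.000383). Zc3h12a, a nuclease that degrades cytokine messages (−1.25 ± 0.264, adjusted p = 0.00341), and Tnip3, a partner of the NF-kB inhibitor A20 (−1.34 ± 0.314, adjusted p = 0.00736), did not overlap between groups either. Tnfaip3, which encodes A20, had 15.5 ± 7.07 and 11.7 ± 1.95 CPM and did not pass (adjusted p = 0.427).

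To show the DNA in front of genes that were lower together, the 250 bases before the RefSeq start of 4 of them are printed 5′ to 3′ on the gene's strand (RefSeq sequence, build GRCm38.p6). Capitals mark matches on either strand to a short kappaB motif (GGGA and CC with any 4 bases between them) in the first 3, and to a short interferon response motif (GAAA and GAAA with any 2 bases between them) in the last. They lie at chr12:55492648-55492897 (minus strand) for Nfkbia, chr5:90903649-90903898 (plus) for Cxcl2, chr12:104406458-104406707 (plus) for Serpina3n and chr3:142620413-142620662 (plus) for Gbp2.
Nfkbia: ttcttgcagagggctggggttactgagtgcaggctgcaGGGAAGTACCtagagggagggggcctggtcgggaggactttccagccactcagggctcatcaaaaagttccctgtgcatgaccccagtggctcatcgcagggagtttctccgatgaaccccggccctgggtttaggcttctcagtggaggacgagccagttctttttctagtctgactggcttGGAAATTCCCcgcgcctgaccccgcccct
Cxcl2: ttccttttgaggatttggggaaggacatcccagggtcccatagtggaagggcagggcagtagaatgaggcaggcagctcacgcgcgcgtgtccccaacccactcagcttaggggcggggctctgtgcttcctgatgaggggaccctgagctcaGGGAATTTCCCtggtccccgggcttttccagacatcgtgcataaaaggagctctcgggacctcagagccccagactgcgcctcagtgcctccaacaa
Serpina3n: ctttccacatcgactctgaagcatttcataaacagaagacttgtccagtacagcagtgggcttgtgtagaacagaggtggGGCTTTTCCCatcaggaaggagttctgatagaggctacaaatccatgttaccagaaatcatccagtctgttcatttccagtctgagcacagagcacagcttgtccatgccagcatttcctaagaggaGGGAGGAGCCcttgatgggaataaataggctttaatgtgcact
Gbp2: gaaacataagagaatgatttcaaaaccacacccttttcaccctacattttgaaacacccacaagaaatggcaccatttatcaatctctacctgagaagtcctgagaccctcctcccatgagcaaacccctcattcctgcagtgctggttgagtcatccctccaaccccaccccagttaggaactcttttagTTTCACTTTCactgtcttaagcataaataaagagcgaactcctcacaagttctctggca
Nfkbia held 2 kappaB matches, the first bases of which lay 212 and 29 bases before the start, and Cxcl2 held an overlapping pair at 97 and 96 bases. The match in Gbp2 lay 59 bases before the start. Over 32851 promoters of the same length, each counted by itself, 17.6% held the kappaB letters and 2.98% the interferon response letters. The list counts that follow are by gene, and a match in any promoter of a gene counted. A gene with several promoters thus had more chances, and the 2 measures are not strictly alike. The kappaB letters were found in 5 of the 11 measured NF-kB list genes with a promoter sequence, in 4 of 6 cytokine list genes and in 3 of 12 antimicrobial list genes. The interferon response letters were found in 7 of 7 genes of the GBP and IRG list and in 1 of 10 genes of the MHC class I list. These matches describe letters and no binding, and they were counted in measured members whatever their change.

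Epithelial antimicrobial and acute phase genes formed the list with the most calls, 10 of 15 measured (of 19 listed) lower, with a median log2 fold change of −1.86. Serpina3n, an acute phase inhibitor of serine proteases (chromosome 12, 104406729 to 104414329), stood at 98.4, 22.8, 45.6, 98.9 and 120.3 CPM in the double knockout and at 9.09, 8.27, 4.14, 10.8 and 18.7 in the MLKL triple knockout. The groups did not overlap, double knockout replicate 2 came nearest, and WT held 8.68 ± 3.6 CPM (−2.92 ± 0.395, adjusted p = 5.94e-05). Nos2, the inducible nitric oxide synthase, stood at 18.5, 7.93, 2.59, 38.6 and 15.9 CPM against 0.519, 0.197, 0.243, 0.225 and 0.971, from 383 reads against 9. That is a ratio of 38 (19.8 to 83.8, counting error only), without overlap (adjusted p = 0.000796). Pla2g2a, a phospholipase that kills bacteria, ran from 8.95 to 43.3 CPM in the double knockout and from 1.46 to 7.19 in the MLKL triple knockout (−3.15 ± 0.572, adjusted p = 0.000903). Lcn2, which sequesters bacterial iron carriers and is made by neutrophils as well as epithelium, was lower with overlapping groups (−2.95 ± 0.562, adjusted p = 0.00135). The list kept 10 lower genes without the library labelled replicate 5 and 10 with sex as a term. The 15 neutrophil genes summed to between 247 and 827 CPM in the double knockout, 209 and 263 in the MLKL triple knockout and 140.5 and 270.5 in WT. The sums of the groups compared overlapped. Most of these reads came from Ly6g, so the sums say little about other neutrophil transcripts. The part of neutrophil transcripts in the change of the antimicrobial list was not tested.

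Antigen presentation genes and markers of several leukocytes were also lower. MHC class II genes, which present peptides to CD4 T cells, were lower in 6 of 10 measured (median −1.42; 6 without the library labelled replicate 5). Cd74, the invariant chain that guides class II assembly, stood at 477, 146, 279.9, 840.5 and 483 CPM in double knockout replicates 1 to 5 and at 75.3, 91.1, 42.6, 104 and 192 in the MLKL triple knockout. The groups overlapped, because double knockout replicate 2 lay below the library labelled replicate 5 (−2.14 ± 0.374, adjusted p = 0.000727; −2.50 without that library). H2-Aa, a chain of the class II molecule itself, went from 477 ± 253 to 135 ± 80.3 CPM (adjusted p = 0.00213), and H2-DMa and H2-DMb1, which load its peptides, had log2 fold changes of −1.90 and −2.58. H2 genes resemble each other and the deposited counts include divided reads, so the split between single H2 genes is uncertain. Monocyte and macrophage genes were lower in 5 of 17 (median −0.72), in 10 of 17 without the library labelled replicate 5, and in 1 of 17 in the fit of the 10 libraries alone. Fcgr3, an antibody receptor of myeloid cells, led them with 35.5 ± 15.6 against 11.5 ± 6.41 CPM (−1.64 ± 0.27, adjusted p = 0.000405). C1qa and C1qb, complement chains made by tissue macrophages, were lower by −0.88 and −1.08 on the log2 scale. The summed level of the macrophage list ran from 459 to 987 CPM in the double knockout, 338 to 728 in the MLKL triple knockout and 327 to 511 in WT.

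Plasma cell transcripts, from the cells that secrete IgA into the gut, were lower in 7 of 13 genes (median −1.65; 6 without the library labelled replicate 5). Igkc, the kappa light chain, stood at 3887, 711, 5479, 4675 and 3754 CPM in the double knockout and at 881, 341, 861, 493 and 1580.4 in the MLKL triple knockout. Only double knockout replicate 2 fell within the range of the MLKL triple knockout (−2.16 ± 0.502, adjusted p = 0.0071). Mzb1, a chaperone of antibody secretion, ran from 11.5 to 41.6 CPM against 4.27 to 9.46, without overlap (−1.96 ± 0.352, adjusted p = 0.000808). Prdm1, the transcription factor that drives plasma cell formation, was lower as well (−1.63, adjusted p = 0.00191). B cell genes went the other way in value, with a list median of 1.31, but only Cr2, complement receptor 2 of B cells and follicular dendritic cells, passed (2.17 ± 0.624, adjusted p = 0.0295; 0.051 without the library labelled replicate 5, 1 of 10 alternative fits in which the call was lost). Its levels were 2.78, 9.21, 5.18, 5.19 and 2.51 CPM in the double knockout and 4.41, 28.5, 9.98, 35.7 and 29.6 in the MLKL triple knockout, so 3 MLKL triple knockout libraries were high and 2 were within or near the double knockout range. The summed B cell level ran from 17.5 to 62.9 CPM in the double knockout and from 18.4 to 142 in the MLKL triple knockout. Of 18 T and NK cell genes 7 were measured, and 1, Cd4, was lower (−1.33, adjusted p = 0.0419). The call for Cd4 was lost in 10 alternative fits, sex as a term and the fit of the 10 libraries among them, and the list had 2 lower genes without the library labelled replicate 5.

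Interferon-induced genes are where the library labelled replicate 5 mattered most. The GBP and IRG genes, guanosine triphosphatases that attack vacuoles of intracellular microbes and are induced by interferon gamma, were lower in 5 of 11 measured (median −1.58), and in 9 of 11 (median −2.50) without that library. With sex as a term 3 were lower, and in the fit of the 10 libraries alone 2 of 10. Gbp2 stood at 150.1, 65, 29.7, 462 and 269.7 CPM in the double knockout and at 44.4, 21.5, 23.1, 25.4 and 77.2 with MLKL removed. Double knockout replicates 4 and 5 were far above the rest, replicates 2 and 3 lay within the MLKL triple knockout range, and the call was lost without replicate 4 (−2.35 ± 0.576, adjusted p = 0.0102 with all libraries). Against the 1 female double knockout library its log2 fold change was 0.36. Gbp genes are close relatives, so reads divided between them are uncertain. Genes of interferon gamma signalling and its chemokines were lower in 5 of 14 measured (median −0.74), in 8 without the library labelled replicate 5, in 1 with sex as a term, and in 2 of 13 in the fit of the 10 libraries alone. Cxcl9, which draws T cells, stood at 31 ± 33.5 against 1.67 ± 1.7 CPM (−4.21 ± 0.895, adjusted p = 0.00365; 0.0617 with sex as a term). Ido1, an enzyme that breaks down tryptophan, rested on 193 reads against 11, a ratio of 15.7 (8.57 to 31.9, counting error only). Its edgeR adjusted p was 0.0012, and 0.053 with sex as a term. Ubd, a ubiquitin-like protein of the same response, had a log2 fold change of −3.49 (adjusted p = 0.0042; 0.0278 with sex as a term). Limma voom did not call it (adjusted p = 0.079), and in females only the value turned to 0.12.

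MHC class I and immunoproteasome genes were lower in 2 of 12 measured, Psmb10 and Psme1 (median −0.89), while 8 were lower without the library labelled replicate 5. The call for Psmb10 was lost in 7 alternative fits and that for Psme1 in 6, the fit of the 10 libraries alone among them for both. Psmb10, a catalytic subunit of the immunoproteasome, had 85.7, 78.7, 93.3, 94.3 and 161 CPM across the MLKL triple knockout, where that library was the high one, against 103 to 274 in the double knockout (−0.87 with it and −1.09 without it). Of 24 type I interferon response genes, all measured, edgeR, DESeq2 and limma voom called 0, and 2 had an unadjusted p under 0.05. The mean log2 CPM over this list was 6.64 in the library labelled replicate 5 and at most 3.49 in the other MLKL triple knockout libraries, against 2.33 to 4.60 in the double knockout. The list's median log2 fold change was 1.06 with that library and −0.47 without it, so its sign rests on 1 library. Oas2, an antiviral sensor of double-stranded RNA, stood at 4.41, 1.57, 3.41 and 1.8 CPM in MLKL triple knockout replicates 1 to 4 and at 116 in replicate 5 (adjusted p = 0.134, and 0.993 without it).

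**Figure D3:**
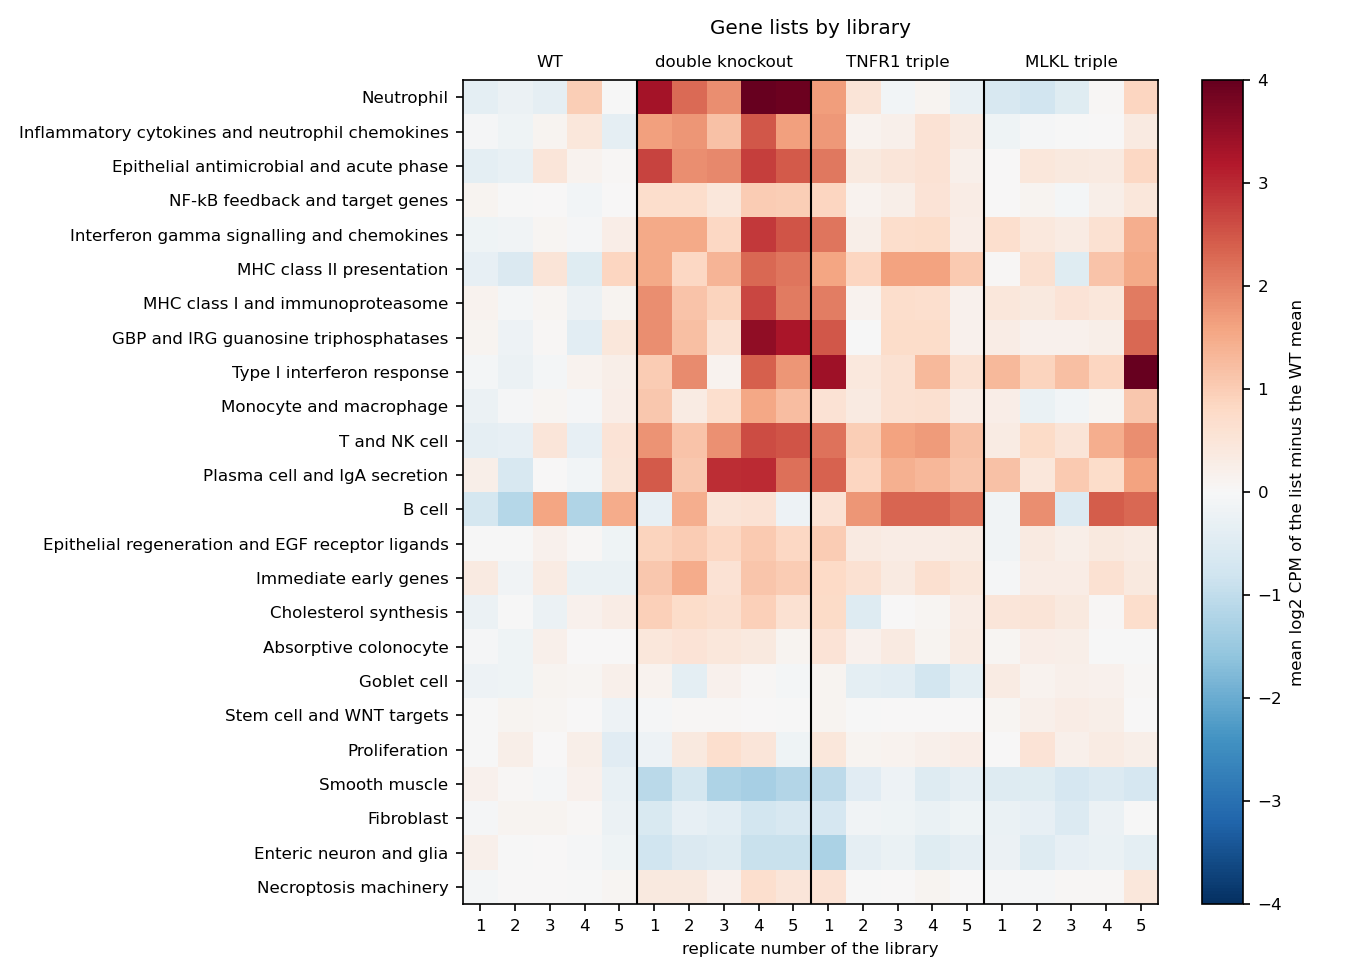
Mean log2 CPM of each gene list in each of 20 libraries, minus its mean in WT, with red for higher and blue for lower and the colour scale ending at 4 in both directions. For the neutrophil and antimicrobial lists every double knockout library lies above every MLKL triple knockout library. For MHC class II the groups overlap, with double knockout replicate 2 (mean log2 CPM 5.41) below MLKL triple knockout replicate 4 (5.72) and the library labelled replicate 5 (6.10), which is also red for interferon lists.

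Epithelial regeneration genes and ligands of the EGF receptor were lower in 7 of 17 measured (of 23 listed) (median −0.65; 7 without the library labelled replicate 5, and 4 of 16 in the fit of the 10 libraries alone). Hbegf, a ligand of the EGF receptor (chromosome 18, 36504927 to 36515805), stood at 81.6, 84.9, 74.1, 65.5 and 80.2 CPM in the double knockout and at 14.3, 29.1, 21.9, 27.4 and 33.2 in the MLKL triple knockout. No double knockout library came near the MLKL triple knockout range, and WT held 23.2 ± 6.6 CPM (−1.61 ± 0.224, adjusted p = 8.93e-05). The TNFR1 triple knockout mean for Hbegf was 48.7 CPM, and its difference from the MLKL triple knockout did not pass (adjusted p = 0.0696). Ereg, another such ligand (−1.46, adjusted p = 0.00746), Plaur, the urokinase receptor (−1.50, adjusted p = 0.00681), and Emp1, a membrane protein of regenerating epithelium (−0.99, adjusted p = 0.0012), were lower too. Krt20, a keratin of surface colonocytes (chromosome 11, 99428403 to 99438150), stood at 956, 929, 724, 1167 and 799.9 CPM against 357, 518, 427, 438 and 466, without overlap (−1.05 ± 0.162, adjusted p = 0.000285).

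Immediate early genes, which respond within minutes to growth and stress signals, were lower in 4 of 11 measured (median −0.57; 4 without the library labelled replicate 5, 2 without double knockout replicate 1 and 2 with sex as a term). Egr1 ran from 39.7 to 111 CPM in the double knockout and from 14.3 to 32.6 in the MLKL triple knockout (−1.72 ± 0.305, adjusted p = 0.00078). Fos, Fosb and Junb were the others, and the calls for Fos and Junb were lost with sex as a term and in 9 and 10 alternative fits in all. Absorptive colonocyte genes were lower in 4 and higher in 1 of 22 (median −0.22; 4 lower and 2 higher without the library labelled replicate 5). Among them the sodium-proton exchanger Slc9a3 went from 32.7 ± 7.1 to 9.96 ± 3.78 CPM (−1.71, adjusted p = 0.00689), and the bile acid exporter subunit Slc51b from 53 ± 15 to 19.2 ± 8.02 (−1.46, adjusted p = 0.00251). The water channel Aqp4 was lower than in the double knockout (97 ± 24.9 against 229 ± 74.1 CPM, adjusted p = 0.0164) and still higher than in WT (36 ± 14.2 CPM; 1.43, adjusted p = 0.0375). The tight junction genes Cldn4 (−0.97, adjusted p = 0.00331) and Cldn7 (−0.58, adjusted p = 0.02; lost in 3 alternative fits) were the 2 of 15 that were lower. Sct, the hormone secretin, was lower without overlap (−1.46 ± 0.232, adjusted p = 0.000383), as 1 of 2 lower among 11 enteroendocrine genes, with Cck (−1.85, adjusted p = 0.0114, and 0.0638 with sex as a term).

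By smallest p, with at least a 2-fold difference, the 12 leading lower genes were Cwh43, Fam43a, Serpina3n, Hbegf, Smpdl3b, Krt20, Pim1, Sct, Ddah1, Tnfaip2, Krt23 and Tmem253. In all 12 the groups did not overlap, and all 12 were called without the library labelled replicate 5, with sex as a term and in the fit of the 10 libraries alone. Genes picked by smallest p in the same libraries are likely to show both, so these counts are a description. Of all 1182 genes called, these 3 fits called 995, 700 and 479. The 1 female double knockout library gave the same direction for all 12, which follows from the lack of overlap and is no separate check on sex. Cwh43, which remodels lipids of membrane anchors (chromosome 5, 73406075 to 73453435), led them. It stood at 37.9, 24.5, 25.7, 29.7 and 35.1 CPM in the double knockout and at 3.63, 7.87, 3.65, 7.86 and 4.37 in the MLKL triple knockout, with 4.38 ± 1.95 in WT (−2.46 ± 0.314, adjusted p = 3.59e-05). It was also lower than in the TNFR1 triple knockout, at 19.7 CPM (−1.83, adjusted p = 0.00516). Ddah1, which clears an inhibitor of nitric oxide synthase, stood at 84 ± 19.5 against 19.7 ± 5.09 CPM (−2.09 ± 0.336, adjusted p = 0.000383). Pim1, a kinase gene induced by cytokine receptors, had 24 ± 8.89 against 7.49 ± 3.29 CPM, and Tnfaip2, named for its induction by TNF, 42.6 ± 27.6 against 11.3 ± 2.09 (adjusted p = 0.000347 and 0.000383).

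The 12 leading higher genes were Clca1, Dio1, Mettl7b, Gsdmc3, Ifi27, Itga7, Prlr, Zan, Gsdmc4, Klk1, Klb and Fndc5. Again no groups overlapped and all 12 were called under the same 3 alternatives, which the choice by smallest p makes likely here too. The female double knockout library gave the same direction for all 12, as the lack of overlap requires. Clca1, a protease that goblet cells secrete into the mucus (chromosome 3, 145003817 to 145032776), stood at 535, 564, 796, 677 and 361 CPM in the double knockout and at 1731, 1806, 1655, 1392 and 1699 in the MLKL triple knockout. The lowest MLKL triple knockout library was well above the highest double knockout library (1.50 ± 0.185, adjusted p = 3.1e-05). WT held 1154 ± 106 CPM, and the MLKL triple knockout did not pass against it (0.52, adjusted p = 0.148), but it did against the TNFR1 triple knockout at 697 CPM (1.25, adjusted p = 0.000472). Klk1, tissue kallikrein, was the other higher gene of the goblet cell list (864 ± 74 against 351 ± 72.4 CPM; 1.30, adjusted p = 0.000383), while Spink4 was lower (−0.69, adjusted p = 0.0466; 0.0993 without the library labelled replicate 5, 1 of 12 alternative fits in which the call was lost). Of 14 measured goblet cell genes these 2 were higher and 1 lower (median 0.14), so the list as a whole had few calls. Ifi27, an interferon-inducible gene, stood at 99.2, 88.8, 123, 114 and 90.3 CPM, with the library labelled replicate 5 among the lower ones, against 33 to 62.9 in the double knockout (1.13, adjusted p = 0.00017). Of the 24 leading genes in both directions it was the 1 that also differed from WT (0.75, adjusted p = 0.0234).

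Gasdermins are pore-forming proteins of pyroptosis, and the gasdermin C genes lie side by side on chromosome 15 (63824346 to 63912297 from Gsdmc2 to Gsdmc4) and are expressed in colonocytes. Gsdmc4 stood at 195, 559, 558, 228 and 153 CPM in double knockout replicates 1 to 5 and at 786, 782, 1144, 1075 and 1046 with MLKL removed (1.51 ± 0.239, adjusted p = 0.000383). Gsdmc3 had 24.7, 25.1, 43, 13.6 and 18.9 CPM against 70.9, 48, 133, 107 and 95.1 (1.85 ± 0.265, adjusted p = 0.000142), and Gsdmc2 went from 30.3 ± 11.5 to 83.8 ± 31.1 (1.47, adjusted p = 0.000492). All 3 were lower in the double knockout than in WT (−1.28, −1.77 and −1.43 on the log2 scale), and the groups compared did not overlap in any of them. These genes are near-identical copies, so how reads were split between them is uncertain. The pyroptosis and inflammasome list held 4 higher and 4 lower genes of 15 measured (median −0.06). Without the library labelled replicate 5 it held 4 higher and 3 lower, with sex as a term 3 and 2, and in the fit of the 10 libraries alone 3 and 1.

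Several of the leading higher genes encode enzymes or receptors of metabolism. Mettl7b, a methyltransferase gene, stood at 6.87, 7.67, 7.37, 2.47 and 3.64 CPM in the double knockout and at 39.2, 28.5, 37, 38.9 and 25.7 in the MLKL triple knockout, against 52.1 ± 11.1 in WT (2.57 ± 0.332, adjusted p = 3.59e-05). Dio1, which activates thyroid hormone, went from 11.8 ± 5.14 to 44.6 ± 6.51 CPM (1.91 ± 0.237, adjusted p = 3.1e-05), with WT at 51 ± 12.8. Klb, the co-receptor for the endocrine FGFs, had under 4 CPM in every double knockout library and 4.49 to 13.2 in the MLKL triple knockout (adjusted p = 0.000391). Hao2, an oxidase of hydroxy acids (1.27, adjusted p = 0.00399), and Sult1a1, a sulfotransferase (0.80, adjusted p = 0.028), were higher, and Cyp4f14 was lower (−1.09, adjusted p = 0.00969), among 3 higher and 1 lower of 18 xenobiotic and sterol enzymes. Without the library labelled replicate 5, 2 were higher and 1 lower, and the call for Sult1a1 was lost in 6 fits that left out 1 library. Of 14 measured fatty acid oxidation genes edgeR, DESeq2 and limma voom called 0, the smallest adjusted p by edgeR being that of Pparg, 0.151. Pck1, of gluconeogenesis and fat tissue, went from 21.7 ± 7.59 to 59.9 ± 12.9 CPM (1.45, adjusted p = 0.00363).

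Genes of the muscle coat were higher. Of 11 smooth muscle genes 7 were higher (median 0.56; 7 without the library labelled replicate 5 and 8 with sex as a term). Acta2, smooth muscle actin, stood at 1197, 1189, 997, 722 and 1069 CPM in the double knockout and at 1618, 1691, 1897, 1895 and 1412 in the MLKL triple knockout, without overlap (0.72 ± 0.162, adjusted p = 0.00573). Mylk, the kinase that starts contraction, went from 897 ± 203 to 1486 ± 201 CPM (0.73, adjusted p = 0.00792), and stayed below the WT level of 2388 ± 218 (−0.68, adjusted p = 0.0483). Desmin (Des, 0.81, adjusted p = 0.0113) and calponin (Cnn1, 0.59, adjusted p = 0.0141) were higher as well. The summed smooth muscle level ran from 4276 to 6673 CPM in the double knockout, 7147 to 8055 in the MLKL triple knockout and 9292 to 12749 in WT. The plasma cell and macrophage lists moved the opposite way, as given above, and their part in the muscle values, which are shares of a library, was not tested. Fibroblast genes were higher in 2 of 11 (Fbln1, 0.82, and Lum, 0.97), and Kit, of mast cells and of the pacemaker cells of the gut, was higher (0.82, adjusted p = 0.0012). The matrix cross-linking enzyme Lox was lower (25.5 ± 15.9 against 6.6 ± 1.56 CPM; −1.96, adjusted p = 0.00106).

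Stem cell and WNT target genes were higher in 3 of 15 measured (median 0.16). Without the library labelled replicate 5 the count was 2, with sex as a term 2, without double knockout replicate 1 it was 1, and in the fit of the 10 libraries alone 1. The 3 genes were Smoc2 (0.79, adjusted p = 0.00616), Lgr5, the receptor that marks crypt stem cells (0.94, adjusted p = 0.0184), and Nkd1 (0.66, adjusted p = 0.0432; lost in 13 alternative fits). Lgr5 stood at 4.74, 5.63, 9.56, 6.43 and 5.92 CPM in the double knockout and at 13, 13.6, 18.5, 8.09 and 8.74 in the MLKL triple knockout, overlapping through the female double knockout library, and its call was lost with sex as a term (adjusted p = 0.104). It was higher than in the TNFR1 triple knockout as well (1.33, adjusted p = 0.0105). Of 20 proliferation genes edgeR called 0 (Mcm3 had the smallest adjusted p, 0.0677) and DESeq2 called 1. Likewise edgeR called 0 of 11 endothelial, 7 tuft cell and 7 mitochondrially encoded genes. Over the 7 lists with 0 edgeR calls in either direction, 11 genes had an unadjusted p under 0.05, DESeq2 called 2 and limma voom 0. Among 28 measured secretory targets of XBP1 1 gene was lower in the fit of all libraries, Herpud1, of ER-associated degradation (−0.77 ± 0.154, adjusted p = 0.00216), and the list median was −0.03. Without the library labelled replicate 5, 2 of these genes were lower, and with sex as a term 3. Among 14 ATF4 stress response genes 3 were lower (median −0.25; 2 without the library labelled replicate 5), led by the asparagine synthetase Asns (30 ± 6.66 against 16.6 ± 1.66 CPM; adjusted p = 0.00434). In cholesterol synthesis, the regulator Srebf2 (−0.55, adjusted p = 0.0162) and the enzyme gene Nsdhl (−0.70, adjusted p = 0.0277; 0.0935 with sex as a term) were lower, and these calls were lost in 4 and 8 alternative fits.

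**Figure D4:**
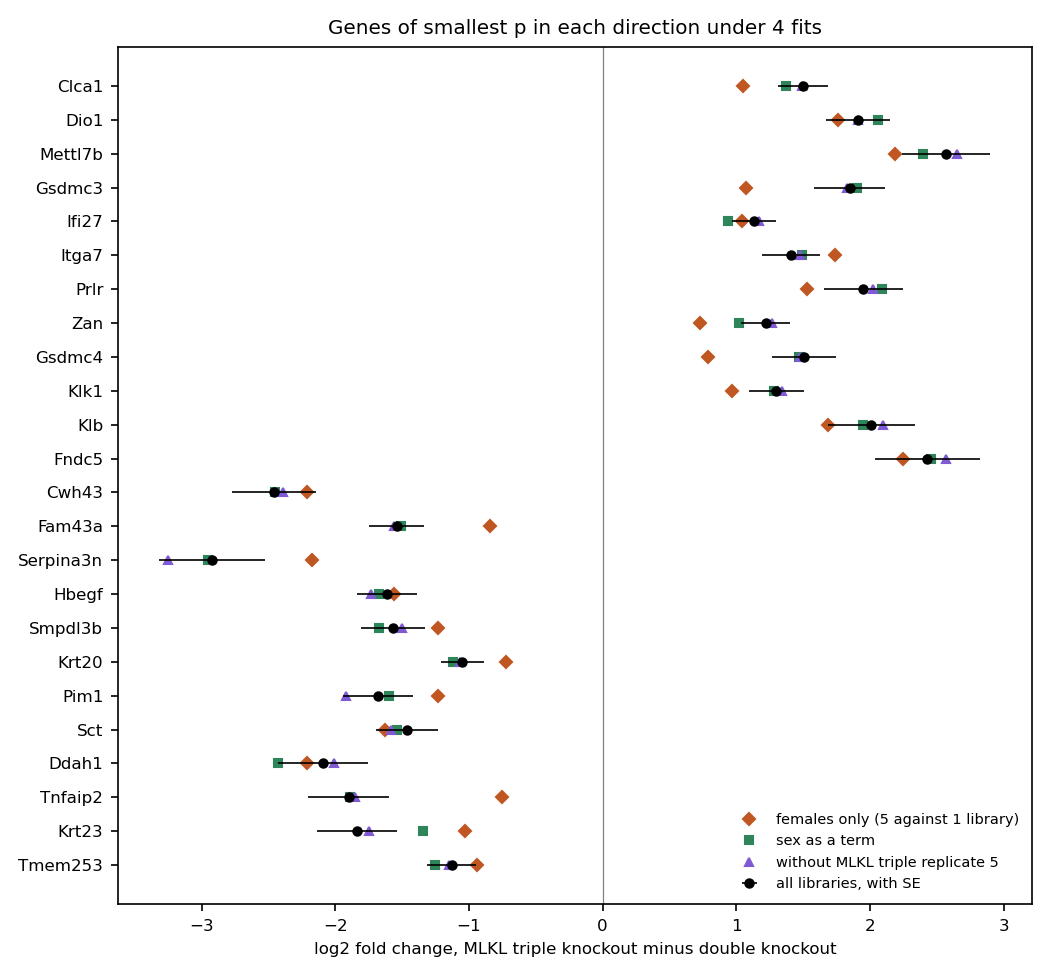
Log2 fold change (MLKL triple minus double knockout) of the 24 leading genes in 4 fits, with bars of 1 SE on the fit of all libraries. In every gene shown all 4 estimates lie on the same side of 0, which follows for females only from the lack of overlap between the groups. The estimate from the single female double knockout library is nearer 0 for several, such as Fam43a and Tnfaip2.

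Sex was nearly confounded with genotype here, so the female double knockout library was set beside the rest. Of the 1319 genes off the Y chromosome called without that library, it lay outside the MLKL triple knockout range on the called side for 747 (56.6%). The same held for 27.6% of all genes tested, taking the direction of each fold change, and both shares use the same MLKL triple knockout libraries. Among the 118 named genes called, 99 were also called with sex as a term and 114 kept their direction in females only. The female double knockout library was itself part of the fit that called them. Of the called genes 4 were on the Y chromosome and 27 on the X. These counts were not set against the number of genes tested on each, so they are no measure of sex.

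Genes close to a targeted locus can carry the DNA of the strain in which it was targeted. Within 20 Mb of Mlkl 19 of 322 genes tested were called (5.9%), against 7.68% elsewhere, and 0 of the 19 also differed from WT. Of the 19, the rule named Mt2, Pdp2, Aprt, Tppp3 and Herpud1. Mt2, a metal-binding metallothionein (chromosome 8, 94172664 to 94173568), stood at 750.4, 273, 104, 313 and 589 CPM in the double knockout and at 61.8, 65.7, 70.1, 100.4 and 93.2 in the MLKL triple knockout. The female double knockout library was the lowest of its group and still above every MLKL triple knockout library (−2.38 ± 0.399, adjusted p = 0.000492). Mt2 was lower than in the TNFR1 triple knockout too (−1.79, adjusted p = 0.0357). Pdp2, a phosphatase that activates pyruvate dehydrogenase (0.82, adjusted p = 0.000727), and Tppp3, a tubulin-binding protein (1.53, adjusted p = 0.00242), were higher, and Aprt, of purine salvage, was lower (−0.64, adjusted p = 0.00104).

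Beside WT, the MLKL triple knockout differed in 132 genes (0.854%; 0.343% higher and 0.511% lower) and the double knockout in 3291 (21.3%; 11.1% higher and 10.2% lower), and these counts share libraries with the main comparison. Sex was nearly confounded with genotype between the MLKL triple knockout and WT as well, since all WT libraries but replicate 3 were male. Of the 12 leading lower genes 11 had been higher in the double knockout than in WT, and 0 differed between the MLKL triple knockout and WT. Of the 12 leading higher genes 11 had been lower in the double knockout than in WT, and 1, Ifi27, differed between the MLKL triple knockout and WT. A difference that does not pass does not show equal levels. Casp8 was lower than in WT (−1.49, adjusted p = 0.00147), while in the double knockout its difference from WT did not pass (−0.58, adjusted p = 0.0679). In the MLKL triple knockout 3 smooth muscle genes were lower than in WT. For Mlkl itself the difference from WT did not pass, as given above. Directly against the TNFR1 triple knockout, 40 genes differed (0.259%), 26 higher (0.168%) and 14 lower (0.0906%). Those named above were Clca1 and Lgr5 on the higher side and Cwh43, Cldn4 (−1.01, adjusted p = 0.0158) and Mt2 on the lower side. By edgeR 0 genes of the neutrophil, cytokine, NF-kB, antimicrobial, MHC class II and GBP and IRG lists were among the 40.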

How the data were processed

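The authors deposited estimated counts of 3′ tags for each Ensembl gene, of which 11.2% of the non-zero ones were no whole numbers. The labels' protocols name the QuantSeq FWD kit, and the submitters' processing notes name cutadapt 3.2, Subread, featureCounts 2.01, R 4.0.0 and build GRCm38. Neither the strand setting, the annotation release nor the rule for dividing reads is known from these sources, so a gene and its antisense partner cannot be told apart. Of 55579 features 92 spike-in sequences with 0 reads were left out. A symbol was found for 55141 of 55487 identifiers, and the others held 0.019% of reads.

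After rounding of the estimated counts, low genes were removed by filterByExpr over the groups, and edgeR 4.0.16 (R 4.3.3) was fitted to all 30 libraries with 1 mean per genotype, TMM scaling, the quasi-likelihood F test and Benjamini-Hochberg adjustment within each contrast (threshold 0.05). The SE is the absolute log2 fold change over the root of F. Levels are mean ± SD of CPM over 5 mice, since each library came from its own mouse by the labels. The procedure was tested on simulated data.

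The members, the gene lists and the rules were chosen with earlier results of these data known. Named genes were the targeted and necroptosis genes; in each direction, the 12 of smallest p that changed at least 2-fold, leaving out antibody and T cell receptor segments, pseudogenes, genes with only a clone or model name, Xist and Y-linked genes; up to 4 of smallest p of each list; and up to 5 called genes within 20 Mb of Mlkl. The genes with printed promoters, and those named for the TNFR1 triple knockout, were picked from these. Alternatives were DESeq2 1.42.0 and its size factors, limma 3.58.1 voom with quality weights, other filters, a fit of the 10 libraries, the replicate number as a block, sex as a term, females only, no genes within 20 Mb of the targeted loci, and each library left out. The filter of 5 CPM and the fit with sex but without the library labelled MLKL triple knockout replicate 5 were chosen after seeing the data. Results for a few genes are not reported here.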

Additional observations from a re-analysis of the deposited data

Results flagged for a closer look

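Within a group of 5, a library was singled out where its gap to the nearest other was large for the range of the group, which chance does in about 1 group in 20. Many lists and genes were looked at, so many of the libraries below could be singled out by chance. In the library labelled MLKL triple knockout replicate 5 the mean log2 CPM stood high for type I interferon response genes (6.64, next 3.49), GBP and IRG genes (4.92, next 2.92), MHC class I and immunoproteasome genes (7.27, next 5.75) and the necroptosis machinery (5.36, next 4.96). Single genes of that library stood high as well, namely Oas2 at 116 CPM, Psmb10 at 161, Rnf31, of the linear ubiquitin ligase, at 25.7 and Zc3h12a at 25.

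Among the other MLKL triple knockout libraries, replicate 1 was low for the epithelial regeneration list (4.92, next 5.32), for Traf2 at 4.93 CPM and for Pgam5 at 14.8. Replicate 3 was low for mitochondrially encoded genes (11.55, next 11.95) and was the one library with a read of Cxcl2 (0.243 CPM). Replicate 4 was low for Pdp2 at 108 CPM. Double knockout replicate 1 was low for ER stress sensors and chaperones (6.07, next 6.39) and high for Tradd at 176 CPM, Tmem253 at 31.1 and Aprt at 238. Double knockout replicate 2 was low for Pla2g2a at 8.95 CPM, Igkc at 711 and Nkd1 at 6.14, and high for Pparg at 42.7.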

How the results depend on the processing

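Calls for single genes rest on 5 mice a group, and the lowest levels on a handful of reads. Of the 118 named genes called, 72 stayed called under every alternative that tested them, females only aside. The 5 CPM filter tested 104 of the 118, and the fit without genes near the targeted loci left out genes such as Mlkl. The count of 1182 genes stayed within 1.5 times under DESeq2 (1353), its size factors (1179), limma voom (820), sex as a term (876), no genes near the targeted loci (1111), no filter (1080), the 1 CPM filter (1184, which tested more genes than the filter used) and the 5 CPM filter (1099, chosen after seeing the data). The fit of the 10 libraries alone called 490 (218 higher, 272 lower), and females only, with 1 double knockout library, 0 (0 higher, 0 lower). Leaving out 1 library gave 720 to 1331 genes, 312 to 607 higher and 408 to 742 lower. The lowest total was without double knockout replicate 4 (720), the next without double knockout replicate 5 (781). Without both double knockout replicate 1 and the library labelled MLKL triple knockout replicate 5 it was 1089, and with sex as a term and without the latter 1030.

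With the replicate number as a block 1066 genes were called, 473 higher and 593 lower. The numbers share no stated litter or day, the deviations of same-numbered libraries correlated at −0.09, 0.10, −0.01, −0.10 and 0.15, and so the block pairs nothing known.

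Signs that turned were as follows, all in log2 fold change and the cause not tested. In females only Zbp1 was 1.45, Tnfaip3 0.65, Sharpin 0.22, Rbck1 0.04, and, among called genes, Gbp2 0.36, Slc10a2 0.35, Ubd 0.12 and Ly6g 0.07. With sex as a term Traf2 was −0.04, Sharpin 0.02 and Rnf31 −0.06, and against WT Zan −0.09 and Smpdl3b −0.09, and against the TNFR1 triple knockout Sct −0.01. With sex as a term and without the library labelled MLKL triple knockout replicate 5 Traf2 was −0.04, Rnf31 −0.38 and Oas2 −2.29. Without that library Rnf31 was −0.19 and Oas2 −0.03. Without it and double knockout replicate 1 Birc2 was −0.08, Rnf31 −0.28, Oas2 −0.22 and mt-Nd1 0.01, against WT Serpina3n −0.10, Hbegf −0.01 and Pim1 −0.12, and against the TNFR1 triple knockout Mettl7b 0.05 and Sct −0.11. By limma voom Birc2 was −0.01. Leaving out 1 library at a time put Birc2 between −0.03 and 0.13, Rnf31 between −0.19 and 0.24, Oas2 between −0.03 and 3.49, Sharpin between −0.10 and 0.02 and Fadd between −0.19 and 0.00.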

Other observations

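S100b, a marker of enteric glia, was the 1 of 11 enteric neuron and glia genes that was higher (0.99, edgeR adjusted p = 0.0455; 0.082 without the library labelled MLKL triple knockout replicate 5, 1 of 13 alternative fits in which the call was lost). Of the matrix remodelling genes Mmp14, a membrane-bound matrix protease, was lower (−0.46, adjusted p = 0.0406) and Timp2, an inhibitor of such proteases, higher (0.49, adjusted p = 0.0464), and both calls were lost in 12 alternative fits, the one without double knockout replicate 1 among them.

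The cystine transporter Slc7a11 stood at 5.23, 6.65, 3.79, 8.66 and 6.38 CPM in the double knockout and at 1.3, 2.56, 1.22, 2.7 and 3.15 in the MLKL triple knockout, without overlap (−1.45 ± 0.385, edgeR adjusted p = 0.0176), and its call was lost in 3 fits that left out 1 library. Dclk1, a marker of tuft cells, did not overlap between the groups either (20.5 ± 1.96 against 29.3 ± 5.85 CPM) but missed the threshold (0.52 ± 0.169, adjusted p = 0.057). Krt23, a keratin, was the 1 of the 12 leading lower genes that had not passed between the double knockout and WT (0.74, adjusted p = 0.0536), and its value against WT in the MLKL triple knockout was −1.10 (adjusted p = 0.0785).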
